A study of Rattus norvegicus with 24 samples.

Results

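The genes that mark the midbrain were examined in the saline RNA of a rat brain array study. The members are the saline channels of the 4 midbrain arrays, out of 24 saline channels in all, and they were set against the 20 saline channels of the other 5 dissected regions. A channel was a member if its label names midbrain, and the saline dye (Cy3 or Cy5) was read from the label of each array. The animals were male Wistar rats, 10 weeks old, of which 3 were given saline and 6 were given MK-801, which blocks NMDA receptors, by injection into the abdomen. MK-801 was given at 0.08 mg per kg (low dose) or 0.16 mg per kg (high dose), and all brains were taken 40 min after the injection. The regions, cut out by the method of Glowinski and Iversen per the labels' protocols, were the midbrain, hypothalamus, hippocampus, amygdala, cerebral cortex and ventral striatum. Each 2-colour array held saline RNA in one dye and MK-801 RNA in the other, and every region had 4 arrays, 2 with saline in Cy3 and 2 with saline in Cy5. In every region arrays 1 and 2 held MK-801 RNA of the high dose and arrays 3 and 4 that of the low dose.

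No rat is assigned to an array in the labels, and the saline RNA of a region may be 1 extract shared by its 4 arrays. The 4 arrays of a region were therefore averaged to 1 value, and the spread between them measures arrays and dyes, not rats. No slide held more than 1 region, so that slide and region cannot be told apart. A region is a block of tissue with many cell types, and in such bulk RNA more cells of a type and more RNA per cell cannot be told apart.

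The midbrain holds the dopamine neurons of the substantia nigra and the ventral tegmental area, which project to the striatum and the cortex. These neurons make dopamine from tyrosine with the enzymes encoded by Th and Ddc, load it into vesicles with the transporter encoded by Slc18a2 and take it back up with the one encoded by Slc6a3. The dorsal raphe nucleus, with serotonin neurons, also lies in the midbrain, and Tph2 encodes the rate-limiting enzyme of serotonin synthesis in neurons. During development transcription factors pattern these regions: En2 acts at the border of midbrain and hindbrain, Foxa2 in the ventral midbrain and further back, Otx2 in forebrain and midbrain alike, and the Dlx factors in the forebrain.

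The first 30 bases of the 60-base array probes of the 3 marker genes and of the 5 transcripts that passed the test are printed here. Their values below rest on these probes, and those of other genes on other probes. Probe positions are those of the array files, on assembly rn3.
Th, chr1:203318940-203318999, minus strand: ccctaccaagatcaaacctaccagcctgtg
Slc6a3, chr1:30518494-30518553, minus strand: tatgtgtgaatcgaacttactctcaaaatg
Tph2, chr7:54341942-54342001, minus strand: gaagggaagaaaatcttggaactgtgaatg
Ucn, chr6:25220497-25220556, plus strand: ggctcagtcccgcgttgcagcgccgcccag
Uts2, chr5:168158668-168158727, plus strand: caagattctaacactgtactgagccgtctt
En2, chr4:2471443-2471502, minus strand: agggccagtgtataaagattataccagcat
BF284544, chr1:266034785-266034843, plus strand: tagacagctcgttatgtaccaacactgaat
TC558213, chr5:61010383-61010442, minus strand: gcttcttcagagtacgtatgttttgtattc

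BF284544 and TC558213 are transcript IDs of the array design that no table used here pairs with a gene. The BF284544 probe starts between the starts of 2 probes of Slc18a2 on the same strand, 448 bases from one and 721 bases from the other. The nearest named probes to TC558213 are those of Melk, 162078 bases away, and Zcchc7, 467644 bases away. In the RefSeq table of assembly GRCr8, 4 annotated genes lie between Melk and Zcchc7, among them Pax5, a transcription factor of the midbrain and hindbrain border. No gene was assigned to either ID.

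Promoters were looked up for 13 midbrain genes and 11 were found in the RefSeq promoters of GRCr8. Of the 7 short motifs searched on both strands in the 250 bases before the start, the cAMP response element TGACGTCA was found in Th, Slc18a2 and Ucn, that is in 3 of 11, and in 1.59% of all 33469 promoters. The 3 of 11 counts genes with the element in any of their promoters, while the 1.59% is a share of promoters. The genes looked up were chosen with results of these data known. Slc6a3, with a larger midbrain difference than these 3 genes, did not have the element. It is shown in capitals within the 60 bases around it.
Th, GRCr8 chr1:207508254-207508313, minus strand, element 69 to 62 bases before the start: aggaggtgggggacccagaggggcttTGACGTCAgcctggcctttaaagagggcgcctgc
Slc18a2, GRCr8 chr1:268399943-268400002, plus strand, element 52 to 45 bases before the start: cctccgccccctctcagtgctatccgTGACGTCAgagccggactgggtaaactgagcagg
Ucn, GRCr8 chr6:30957950-30958009, plus strand, element 110 to 103 bases before the start: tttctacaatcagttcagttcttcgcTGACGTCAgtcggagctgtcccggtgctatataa

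The Nr4a element AAAGGTCA was found in Ddc alone among the 11 and in 1.24% of all promoters, and the GATA element GATAAG in Slc6a3 and Gch1 and in 6.18%. The forkhead elements TGTTTAC (3.21% of all promoters) and TGTTTGC (4.16%), the Pitx and Otx element TAATCC (6.34%) and the E-box CACGTG (5.59%) were in none of the 11 windows. These are matches of letters in a window and not binding sites.

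Levels are log2 processed signals after quantile normalization of the 24 saline channels, so that a difference of 1 is a doubling of signal. A level is never compared between probes of different genes. After removal of probes that were well above background in fewer than 4 of the 24 channels, 28584 genes or unnamed transcripts had a value in all 6 regions, and 13435 of them had a gene symbol. The saline channels of the 4 midbrain arrays correlated with each other at r = 0.962 to 0.986 across genes, and with the hypothalamus channels, the most alike, at 0.936 to 0.961. Between 60.1% and 75.5% of the spots were well above background in the midbrain saline channels, and at most 8 spots of a channel were saturated. Over all genes the median difference between midbrain and the mean of the other regions was 0.03.

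The fit to the regional means (limma, Benjamini-Hochberg over 28584 genes, adjusted p under 0.05) called 5 transcripts higher in midbrain, 0.0175% of those tested, and 0 lower. At an unadjusted p under 0.05 there were 886 higher and 784 lower. About 1 in 20 of all transcripts would fall under that p by chance, so these counts are not read as numbers of midbrain genes. In the fit to regional means the lone midbrain value is assumed to vary like the other 5 regions. A gene that is also high in 1 other region, such as the hypothalamus, therefore has a large error. The fit to the 24 single channels, in which arrays of a region count as replicates, called 5372 higher (18.8%) and 5022 lower (17.6%), and its p measures the spread between arrays only. As a description, all 4 midbrain channels lay above all 20 others for 957 of the 26882 transcripts measured in all channels (3.56%), and below all 20 for 654 (2.43%). The distance to the nearest other region had a median of 0.61 among the 957 and 0.69 among the 654, and it exceeded 2 on the log2 scale, which is 4-fold, for 44 and 19. The nearest region was the hypothalamus for 477 of the 957 (49.8%) and for 298 of the 654 (45.6%).

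The 3 marker genes had their highest levels in midbrain. The level of Th was 13.94, 13.49, 13.78 and 13.38 in midbrain arrays 1 to 4, against a lowest of 5.13, a median of 5.96 and a highest of 8.80 in the other 20 channels. All 4 midbrain values lay above all others, and the next region, the hypothalamus, had a mean of 8.62, which is 32.8-fold less signal. The difference from the mean of the other regions was 7.20 (SE 1.10), with an adjusted p of 0.405 in the fit to regional means and 2.68e-19 in the fit to single channels.

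Slc6a3, the dopamine transporter, was at 13.88, 12.82, 13.50 and 13.48 in midbrain and at 1.83 to 8.34 elsewhere, with a median of 2.46. The groups did not overlap, and the values above 8 outside midbrain all came from the hypothalamus, whose mean was 8.21. The hypothalamus held all 4 of the other channels that were well above background. The difference of Slc6a3 was 9.81 (SE 2.13, adjusted p = 0.731 in the fit to regional means).

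Tph2 was at 9.13, 8.99, 8.99 and 9.26 in midbrain and at 3.64, 5.91 and 7.62 (lowest, median and highest) in the other channels. Here the next region was not the hypothalamus, with a mean of 4.27, but the ventral striatum, with a mean of 7.25. The difference was 3.49 (SE 1.08, adjusted p = 0.807 in the fit to regional means).

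Among the 5 transcripts that passed the test, 3 have a gene symbol. Ucn encodes urocortin, a peptide of the corticotropin-releasing family that is made in the Edinger-Westphal nucleus of the midbrain. Its level was 11.72, 12.15, 11.61 and 11.69 in midbrain, against 5.40, 6.95 and 7.27 (lowest, median and highest) elsewhere. The lowest midbrain value stood more than 4 above the highest other value. The difference was 5.07 (SE 0.45, limma adjusted p = 0.0486), and the signal was 25-fold that of the hypothalamus.

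Uts2 encodes urotensin 2, a small peptide known from brainstem and spinal motor neurons. It was at 7.42, 7.80, 8.08 and 8.12 in midbrain and at 1.84, 2.49 and 3.89 elsewhere, where it was well above background in 2 of 20 channels. The groups did not overlap. The difference was 5.19 (SE 0.37, limma adjusted p = 0.0179). The nearest region, the hippocampus, was not well above background on any array, so the signal in midbrain was at least 9.79-fold that of the hippocampus.

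En2, the engrailed factor that patterns midbrain and cerebellum, was at 6.28, 6.33, 6.61 and 6.37 in midbrain and at 1.78, 2.30 and 3.34 elsewhere, well above background in 1 of 20 channels. All midbrain values lay above all others. The difference was 4.04 (SE 0.36, limma adjusted p = 0.0486), and the midbrain signal was at least 4.73-fold that of the hypothalamus, the nearest region.

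BF284544 was at 9.02, 9.49, 9.45 and 9.24 against 1.87, 2.61 and 4.40 (difference 6.38, SE 0.38, limma adjusted p = 0.00718). TC558213 was at 10.37, 10.09, 10.23 and 10.18 against 1.75, 1.95 and 3.05 (difference 8.15, SE 0.30, limma adjusted p = 0.000483). Both were near background outside midbrain, well above it in 2 and 1 of the 20 channels.

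These 5 calls depend on how values under background are treated. When each value under the lowest well-above-background signal of its channel was set to that signal, 0 transcripts passed, with adjusted p-values of 0.0655 for Ucn, BF284544 and TC558213, 0.286 for Uts2 and 0.726 for En2. With the scan day as a block, 0 passed as well. That fit leaves few values for its error, and for these 5 its difference equals that between midbrain and amygdala. It could hardly call a transcript, so this 0 says little about the calls. Midbrain was scanned on the same day as the amygdala alone, and against the amygdala on that day, over 8 single channels, all 5 were called higher. That fit counts arrays as replicates and called 10039 of 28584 transcripts in either direction. The 5 had been picked as high in these same midbrain channels, so this call gives them no further support.

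**Figure D1:**
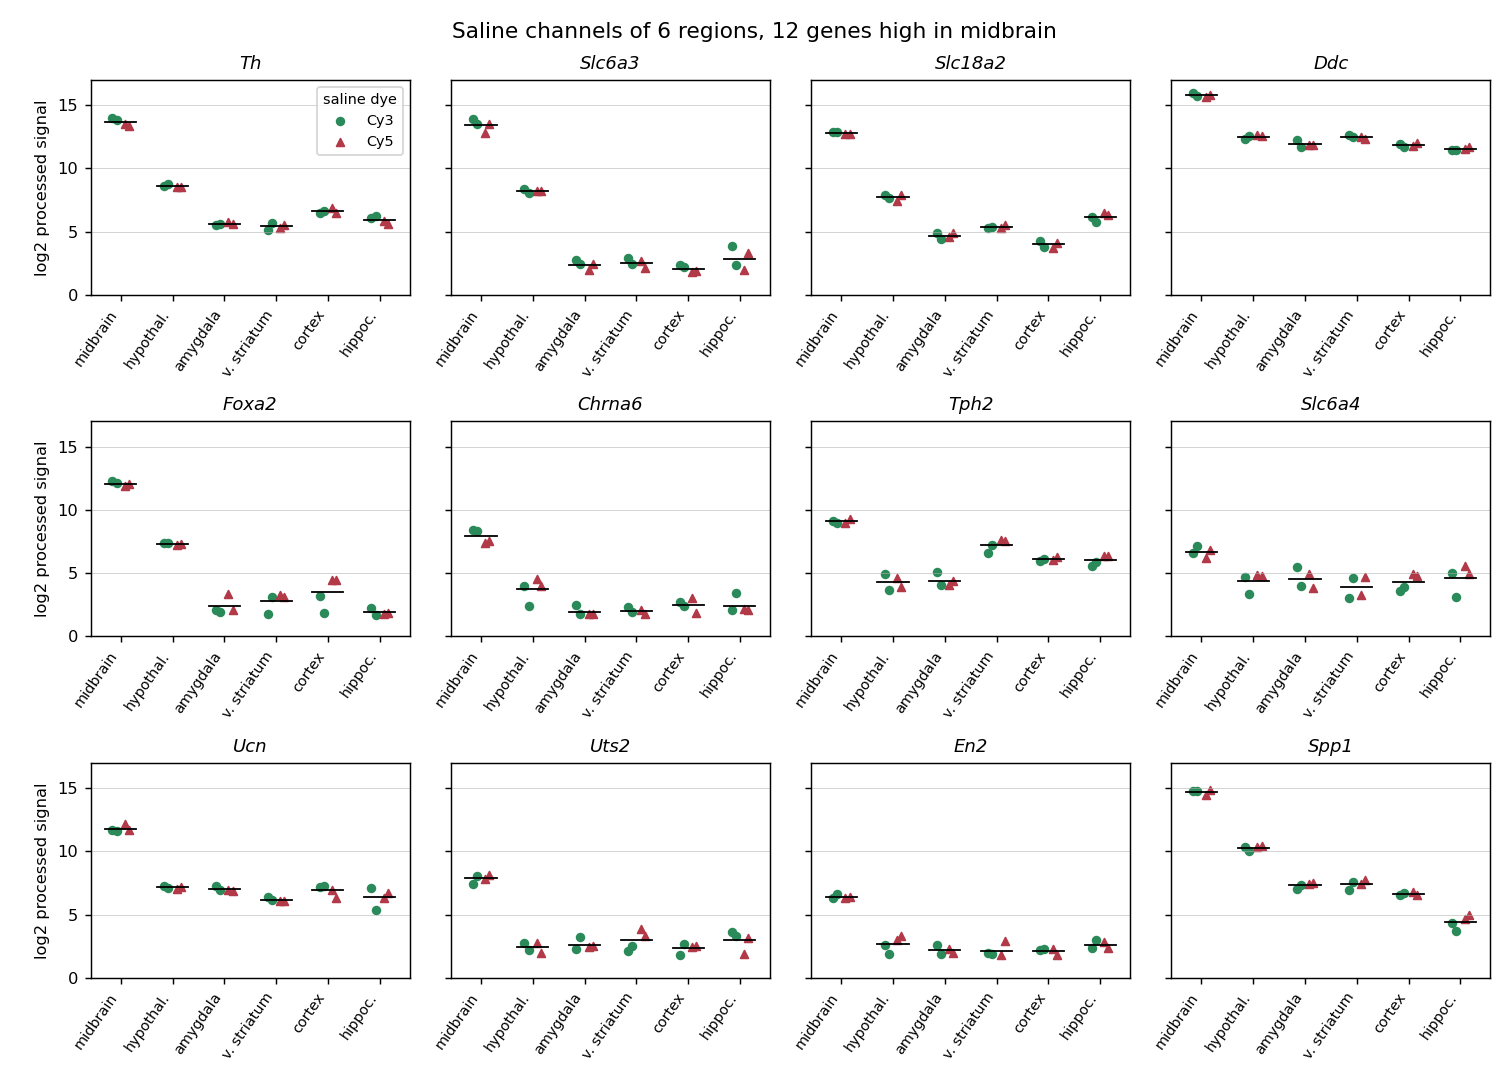
Log2 processed signal of 12 genes (panels) in the saline channels of 6 regions (horizontal axis). Each point is 1 array, circles with saline in Cy3 and triangles with saline in Cy5, and the bar is the mean of the 4 arrays. In every panel the 4 midbrain points lie above the 20 others, and for Th, Slc6a3, Slc18a2, Foxa2 and Spp1 the hypothalamus comes next.

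Of the 23 genes listed for dopamine neurons, 18 were measured. En2 alone passed the fit to regional means. En2, Chrna6 and Chrnb3 met the filter on dim probes only through midbrain. They are among the 11 counted next, where they give no further support. Of the 16 members measured in every channel, 11 had all 4 midbrain values above the 20 others, beside 3.56% of all transcripts, and 0 had all below, beside 2.43%, and the median difference of the 18 was 3.91, beside 0.03 over all genes. With the floor on dim values it was 3.71. Foxa1, Lmx1a, En1, Ntsr1 and Gucy2c had no value in the comparison. Since 22 of the 23 had a probe, most of these were left out as too dim or without a value in every region. The share of 11 of 16 leaves such members out.

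The genes of dopamine synthesis and packaging lay far above the other regions. Ddc, which turns L-DOPA into dopamine and also serves serotonin synthesis, was at 15.96, 15.62, 15.71 and 15.78 against 11.46, 11.97 and 12.63 elsewhere, a 9.55-fold signal over the hypothalamus. Gch1, which makes the cofactor of the Th enzyme, was at 8.92, 8.96, 8.78 and 8.85 against 4.18, 5.03 and 5.62. Its nearest region was the amygdala, at 10.6-fold less signal. The vesicle transporter Slc18a2 was at 12.90, 12.69, 12.88 and 12.73 against 3.74, 5.33 and 7.89. No midbrain value of these 3 genes fell within the range of the others. Their differences were 3.72 (SE 0.45), 3.88 (SE 0.45) and 7.21 (SE 1.21), with limma adjusted p-values of 0.174, 0.174 and 0.519. Another probe of Slc18a2 gave 7.32.

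Aldh1a1, an aldehyde dehydrogenase of ventral nigral dopamine neurons, was at 13.26, 13.47 and 13.39 in the 3 midbrain channels with a value and at 7.60 to 10.66 elsewhere. Its difference was 4.25 (SE 0.91, limma adjusted p = 0.731).

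Among the transcription factors of the dopamine list, Foxa2, which is needed for the birth and upkeep of these neurons, was at 12.24, 11.89, 12.14 and 12.04 against 1.67, 3.08 and 7.38. Its signal was 26.8-fold that of the hypothalamus, the one region where it was also far above the rest, with a mean of 7.33. The difference was 8.49 (SE 1.80, limma adjusted p = 0.731). Otx2 was at 11.36, 11.11, 11.31 and 11.18 in midbrain and at 11.08 on average in the hypothalamus, so that these regions were close, while the cerebral cortex was at 1.83. Otx2 is also made in choroid plexus.

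Pitx3, Nr4a2 and Lmx1b, factors also known for dopamine neurons, overlapped with the other regions. Pitx3 was at 7.80, 7.16, 7.31 and 7.23 against 5.05 to 7.34, which overlap. Nr4a2, which is also expressed in the cortex and hippocampus, had a difference of -0.36 (SE 0.52), with midbrain values of 8.29 to 9.02 within the 7.94 to 10.05 of the others. Lmx1b had a difference of -0.09 (SE 0.39), and array 1 was at 4.86 while the other 3 were at 5.93 to 6.10. Another probe of Lmx1b gave 0.43.

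Receptors and ion channels of dopamine neurons were uneven. Chrna6, a nicotinic receptor subunit found mainly in dopamine and other monoamine neurons, was at 8.38, 7.34, 8.30 and 7.57 against 1.73, 2.28 and 4.53, a difference of 5.37 (SE 0.65, limma adjusted p = 0.174). Both Cy3 values were above both Cy5 values. Chrnb3, its partner subunit, was at 5.82, 6.01, 5.99 and 5.83 against 1.83, 2.78 and 5.16, with the amygdala nearest. The unnamed transcript TC534031, whose probe lies between those of Chrna6 and Chrnb3, was at 13.91, 14.08 and 13.92 in the 3 midbrain arrays with a value and at 1.77 to 10.32 elsewhere.

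Ret, the receptor for glial cell line-derived factors, was at 13.75, 13.51, 14.34 and 14.38 against 7.73, 9.91 and 11.92. All 4 values lay above the others, and other probes of the gene gave differences of 2.93 and 2.13 where this one gave 4.02 (SE 1.14). Sncg, gamma-synuclein, had a difference of 3.21 (SE 0.79) with midbrain at 11.71 to 12.04 and the others at 6.97 to 10.18.

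Drd2, the dopamine receptor that also acts as an autoreceptor, was at 7.79, 7.50, 7.65 and 7.48 in midbrain, below the ventral striatum, with a mean of 9.70, and above the 5.44 to 6.45 of the other 4 regional means. Kcnj6, a potassium channel subunit of nigral neurons, had a difference of 0.00 (SE 1.20), and its midbrain values of 9.06 to 9.58 fell inside the range of 6.73 to 11.20.

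The hypothalamus, the next region for most of these genes, adds to their error in the test. Leaving out this region lowers that error by construction, so the calls below are no independent support. Leaving out any 1 of the other regions instead gave fewer calls than the full fit. When the hypothalamus was left out of the fit, 33 transcripts were called higher in midbrain and 34 lower, of 28597 tested, and 19 and 21 of them had a symbol. Th then differed by 7.75 (SE 0.50, limma adjusted p = 0.00624) and Slc18a2 by 7.74 (SE 0.78, 0.025). Both were well above background in most channels of the other 4 regions, 14 and 15 of 16. Slc6a3 was well above background in 0 of these 16 channels and Foxa2 in 4. With their dim values set to the floor, Slc6a3 differed by at least 9.51 (limma adjusted p = 0.00427) and Foxa2 by 7.89 (SE 0.39, 0.00181), and without the floor by 10.96 and 9.43. With the floor 31 transcripts were called higher and 39 lower, of which 23 and 29 were among the 33 and 34. Ddc and Gch1 were called with and without the floor, and so were Dao, Grin3b, Prph and Slc39a4, which were named after their values were seen. Chrna6, Lhx1 and Shox2, well above background in 1, 0 and 0 of the 16 channels, were called without the floor but not with it. With the floor they differed by 3.94, 3.06 and 3.72. Shox2 is not highest in midbrain, since the region left out had more of it. Its midbrain signal was 0.173-fold that of the hypothalamus.

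The 4 hypothalamus arrays also carried MK-801 RNA in the other channel, and the dopamine genes differed between the channels of these arrays. Slc6a3 was at 8.34, 8.19, 8.08 and 8.23 in the saline channels of arrays 1 to 4 and at 2.02, 2.45, 4.55 and 4.49 in the MK-801 channels. Th was at 8.63, 8.49, 8.80 and 8.54 against 7.41, 7.26, 7.54 and 7.46. Slc18a2 was at 7.86, 7.44, 7.66 and 7.89 against 6.40, 5.91, 6.48 and 6.25. In each of the 3 genes all saline values lay above all MK-801 values of the hypothalamus. Foxa2 was at 7.24 to 7.38 against 6.50 to 7.05. Saline and MK-801 channels hold RNA of different rats and were quantile-normalized as separate sets. The MK-801 RNA was of the high dose on arrays 1 and 2 and of the low dose on 3 and 4. No test was made of this contrast between saline and MK-801 channels, and its cause was not tested. The folds over the hypothalamus given for Th, Slc18a2, Foxa2 and other genes rest on these saline levels. Whether the dissected hypothalamus of the saline rats held some ventral midbrain tissue was not tested.

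**Figure D2:**
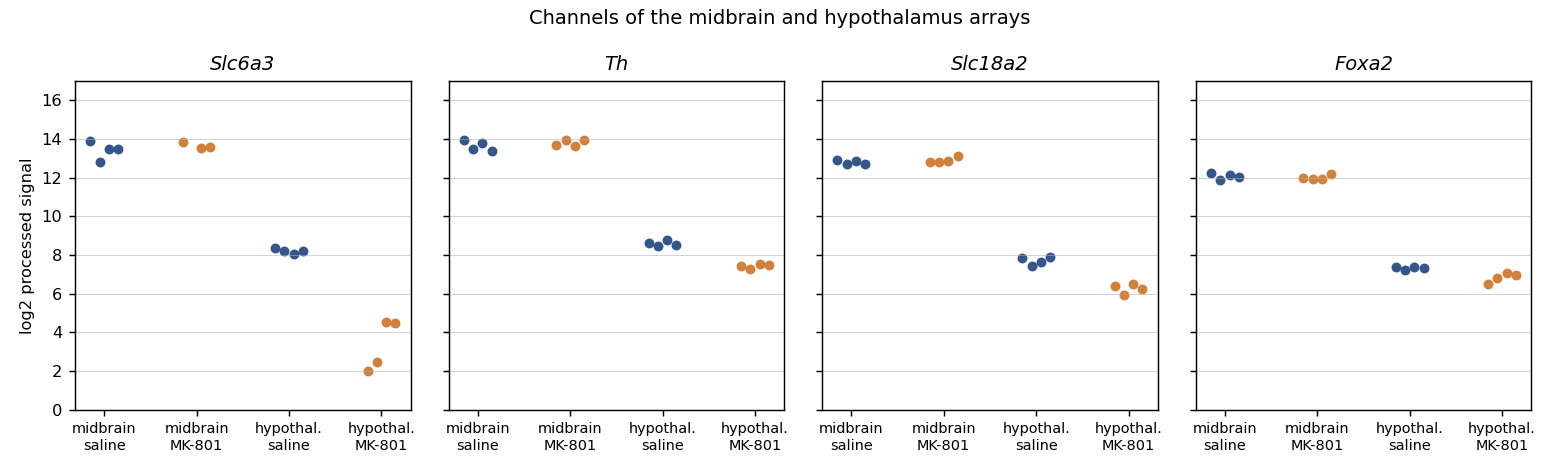
Log2 processed signal of Slc6a3, Th, Slc18a2 and Foxa2 in the saline (blue) and MK-801 (orange) channels of the 4 midbrain and 4 hypothalamus arrays, 1 point per array. Saline and MK-801 channels were quantile-normalized as separate sets. Midbrain channels lie together at 11.89 or above, apart from a missing Slc6a3 value of MK-801 RNA, while in the hypothalamus the saline points lie above the MK-801 points in all 4 panels.

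Of the serotonin list 11 of 12 genes were measured, and 0 passed the test. All 4 midbrain values lay above the 20 others for 4 of 11, which are Tph2, Slc6a4 and the shared genes Ddc and Slc18a2, and below them for 0, beside 3.56% and 2.43% of all transcripts. The median difference was 0.85. Slc6a4, the serotonin transporter, was at 6.60, 6.21, 7.12 and 6.86 against 3.05, 4.68 and 5.53, and its signal was 4.17-fold that of the hippocampus. Its difference was 2.34 (SE 0.37, limma adjusted p = 0.405), and another probe gave 2.52.

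The other serotonin genes overlapped with the rest of the brain. Gata3, a factor of serotonin neurons and of midbrain GABA neurons, was at 5.84, 5.50, 5.72 and 5.01 against 1.67, 2.87 and 5.46, with 1 midbrain value inside the range of the others. Gata2 was at 7.01, 7.49, 7.07 and 7.04 against 5.01 to 7.16. Htr1a, the autoreceptor of serotonin neurons that is also a hippocampal receptor, was at 4.43 to 4.90 and differed by 0.03 (SE 1.36), with the hippocampus at 7.15. Maob differed by -0.22 (SE 0.39) and Slc22a3, a transporter of monoamines, by 0.05 (SE 2.00). Htr5b, a serotonin receptor, was at 2.50, 5.23, 4.61 and 5.54 in midbrain and at 9.55 in the hippocampus. The midbrain mean of Htr5b lay below all 5 other regional means, and the difference was -2.56 (SE 1.54, limma adjusted p = 0.879).

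Of the 5 genes listed for noradrenaline neurons, Tfap2b was the 1 with all midbrain values above the others (3.56% of all transcripts), at 8.62, 8.36, 8.49 and 8.33 against 4.43 to 8.06. Dbh, the enzyme that makes noradrenaline, differed by 0.04 (SE 0.45).

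Transcription factors of midbrain and brainstem had a median difference of 1.09 over 24 measured genes. En2 alone passed the test. En2 and Lhx1, both among the 6 counted next, met the filter on dim probes only through midbrain and give no further support. All midbrain values lay above the others for 6 of the 23 members measured in all channels (3.56% of all transcripts), and below for 0 (2.43%). Besides En2, Foxa2 and Tfap2b these were Nkx6-1, Lhx1 and Irx3. Nkx6-1, a factor of ventral midbrain and hindbrain neurons, was at 9.26, 9.60, 9.18 and 9.41 against 3.04, 5.02 and 6.50, a difference of 4.52 (SE 0.89, limma adjusted p = 0.69). Lhx1 was at 7.14, 6.79, 7.05 and 6.92 against 1.84, 2.35 and 5.73. Irx3 was at 6.95, 6.72, 6.85 and 6.63 against 2.28, 3.78 and 6.33. For all 3 the hypothalamus was nearest.

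Hox genes, which mark the hindbrain and spinal cord, had a median difference of -0.15 over 13 measured genes, and for 0 of 13 did the midbrain values lie apart from the others in either direction, which at shares of 3.56% above and 2.43% below over all transcripts is not a result about the Hox genes. The largest differences were those of Hoxd1 (1.23, SE 0.71) and Hoxc6 (-1.04, SE 0.32), and other probes gave 3.38 and -0.28. The other probe of Hoxd1 had a midbrain mean 1.62 above the next region.

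Peptide genes went both ways, with a median difference of -0.42 over 19 genes and Ucn the 1 past the test. All midbrain values lay above the others for Ucn, Cartpt, Calcb and Adcyap1 and below for Npy, of 18 measured in all channels, beside 3.56% and 2.43% of all transcripts. Cartpt, which encodes the peptide of the Edinger-Westphal nucleus and of reward circuits named CART, was at 13.42, 13.44, 13.42 and 13.46 in midbrain, against 6.67, 8.84 and 12.04. The ventral striatum came next with a mean of 11.93. Its difference was 4.43 (SE 1.56, limma adjusted p = 0.836). Calcb, a calcitonin gene-related peptide of motor and sensory neurons, was at 8.14, 9.16, 8.07 and 8.78 against 3.35, 5.04 and 6.34, a 7.14-fold signal over the cortex. Npy, neuropeptide Y of forebrain interneurons, was at 11.39, 11.48, 11.26 and 11.40 against 12.17, 13.23 and 14.56, so that every midbrain value lay below every other. Other probes of Adcyap1 gave differences of 1.84 and 0.40 where this one gave 1.73. By the probe with 0.40 midbrain was not the highest region. Cartpt, Adcyap1 and Npy were named after their values were seen.

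Nicotinic receptor subunits had a median difference of 0.66 over 9 genes, with 3 of 9 above all other channels (3.56% of all transcripts) and 0 passing the test (0.0175%). Chrna6 and Chrnb3, of these 3, met the filter on dim probes only through midbrain. The remaining gene of the 3 was Chrna5, at 9.95, 9.85, 9.84 and 9.94 against 5.44, 7.29 and 9.10, with the cortex nearest at 8.96.

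Genes of neurofilaments and fast-conducting axons had a median difference of 1.71 over 18 genes, and 8 of the 16 measured in all channels lay above all others, beside 3.56% of all transcripts. Spp1, osteopontin, which large projection and motor neurons make in the rat brainstem, was at 14.80, 14.46, 14.73 and 14.88 against 3.71, 7.16 and 10.41. It had 21.6-fold the signal of the hypothalamus, and its difference was 7.50 (SE 1.74, limma adjusted p = 0.752). Prph, peripherin, an intermediate filament of motor and sensory neurons, was at 13.72, 13.65, 13.63 and 13.54 against 9.49, 9.95 and 12.15. Nefm, the middle neurofilament subunit, was at 16.46, 16.21, 16.81 and 16.22 against 13.45, 14.72 and 15.77. For Spp1, Prph and Nefm alike the hypothalamus came next. Pvalb, a calcium buffer of fast-spiking neurons, was at 13.64 to 13.72 against 10.17 to 13.42.

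Cholinergic and motor neuron genes were mixed, with a median difference of 1.24 over 9 genes. Prph was the 1 of 9 above all other channels, beside 3.56% of all transcripts. Chodl was at 9.43 to 9.75 against 5.83 to 9.64, and Chat, the enzyme that makes acetylcholine, was at 1.86 to 4.63 against 2.75 to 5.21. Genes of glycine and subcortical transmission had a median difference of 1.04 over 12, and for 0 of 11 did the groups lie apart, beside 3.56% and 2.43% of all transcripts. Slc17a6, the glutamate transporter of subcortical neurons, was at 13.62, 13.51, 13.65 and 13.60 in midbrain, with the hypothalamus higher at a mean of 14.50 and the other regional means at 7.90 to 10.58. Slc6a5, the glycine transporter of glycine neurons, was at 8.28, 8.78, 8.13 and 8.59, with the amygdala close at 8.26.

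**Figure D3:**
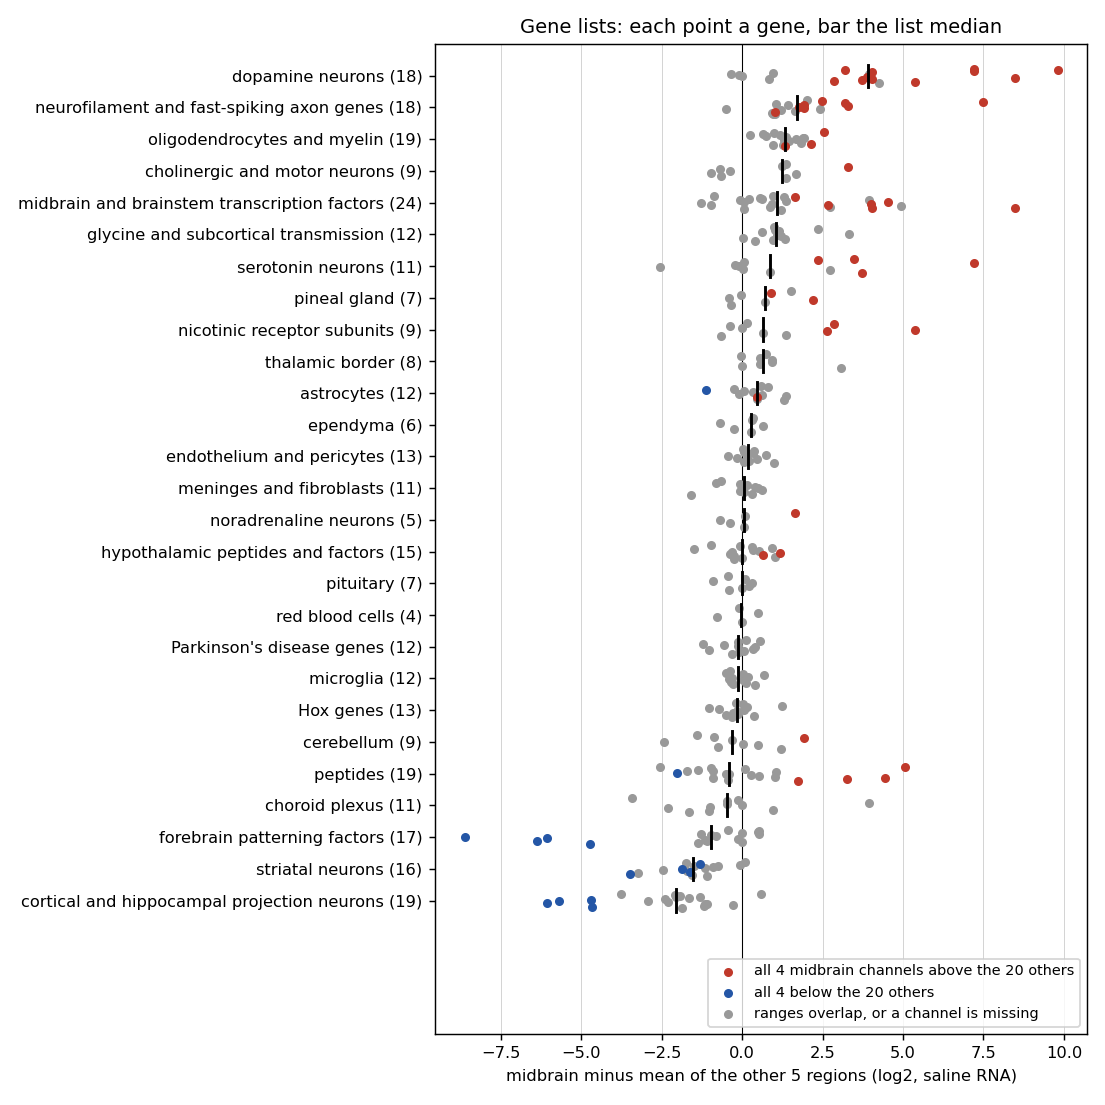
Difference between midbrain and the mean of the other 5 regions in saline RNA (log2, horizontal axis) for every measured gene of 27 lists, with the number measured in brackets and the list median as a bar. Red and blue points have all 4 midbrain channels above or below the 20 others. The dopamine list has the highest median, 3.91, and the cortical and hippocampal projection neurons the lowest, -2.07.

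Myelin genes as a list lay above the amygdala and close to the hypothalamus. Over 19 genes the median difference was 1.34 from all other regions, 2.67 from the amygdala and 0.09 from the hypothalamus. All midbrain values lay above the others for Ugt8, Ermn and Aspa, 3 of the 15 measured in all channels, beside 3.56% of all transcripts. Ugt8, which makes the galactolipids of myelin, was at 9.98, 9.62, 10.12 and 9.60 against 5.95, 6.89 and 8.99, a 2.05-fold signal over the hypothalamus. Ermn was at 11.51 to 11.93 against 8.30 to 10.78.

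The genes of familial Parkinson's disease, in which nigral dopamine neurons are lost, had a median difference of -0.12 over 12 measured genes. Of these 0 passed the test, and for 0 of 9 did the groups lie apart, counts near the shares over all transcripts of 0.0175% called, 3.56% above and 2.43% below. Lrrk2 was at 9.04 to 9.14, beside 9.01 in the hypothalamus and 11.80 in the ventral striatum. Park7 was at 14.17 to 14.47 beside 13.55 to 14.40 in the other channels, and Pink1 at 14.49 to 14.64 beside 13.69 to 14.71.

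Outside the lists, the genes with a symbol whose midbrain mean stood farthest above the next region were taken as measured, a rule added after the values were seen because the test named few genes. Beside Slc6a3, Slc18a2, Th, Foxa2, Ucn, Spp1, Chrna6 and Nkx6-1 they included Gch1, Ddc, Dao, Slc39a4, Calcb and Apobec2. Uts2 and En2 were among them too, but their nearest regions were not well above background, so they have no place in the order. Uts2 stood at least 3.29 above the hippocampus and En2 at least 2.24 above the hypothalamus. For En2 this is no bound over the other dim regions, some of which had higher floors. Dao encodes D-amino acid oxidase, which breaks down D-serine, a co-agonist of NMDA receptors, and is known from astrocytes of the brainstem and cerebellum. It was at 9.33, 8.64, 9.18 and 8.63 against 2.30, 3.81 and 6.29, with the hypothalamus at 5.98. Slc39a4, a zinc importer, was at 11.10, 11.18, 11.22 and 10.81 against 7.13, 7.81 and 9.0, a difference of 3.24 (SE 0.32) with a limma adjusted p of 0.0707. The 5 other regional means of Slc39a4 lay within 7.64 to 8.12.

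Grin3b, an NMDA receptor subunit of motor neurons, was at 9.73, 9.79, 9.97 and 9.56 against 3.96, 5.19 and 8.09, with the hypothalamus at 7.66. Apobec2 was at 10.32 to 10.47 against 4.94 to 7.82. Rln3, the peptide relaxin 3 made by the nucleus incertus of the pontine tegmentum and by cells of the periaqueductal gray, was at 7.00, 6.77, 7.25 and 7.09 against 2.66, 4.63 and 6.75. The groups did not overlap in any of these 3, though for Rln3 the lowest midbrain and the highest other channel nearly touched. The remaining genes named by this rule, with 3.80-fold to 5.51-fold the signal of the nearest region, were Erhl1, Gcgr, Hebp2, Epyc, Klhl1, Pnliprp2, Slc45a3 and Tmem255a, beside Krt25, which was not well above background in any other channel and at least 2.54-fold the mean of the other regions. Another probe of Slc45a3 gave a difference of 2.35 where this one gave 3.18, and its midbrain mean stood 0.49 above the next region.

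The genes whose midbrain values lay farthest below the other regions included Dlx5, Tac3, Camk2a and Ddn. By the fit to regional means 0 genes passed as lower, and the genes below were named by their distance under the nearest region, again after the values were seen, or as list members.

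Dlx5, a factor of forebrain GABA neurons, was at 3.68, 3.41, 3.90 and 3.80 and well above background in 0 of 4 midbrain channels, against 8.39, 9.83 and 12.89 (lowest, median and highest) elsewhere. The other regions therefore had at least 57.5-fold its signal on average, and the hypothalamus at least 20.4-fold. Fezf2, which specifies subcortical projection neurons, was well above background in 0 of 4 midbrain channels and in 16 of 20 others, whose mean was at least 17.8-fold higher in signal. In the hypothalamus it was not well above background on any array either. Of the 17 measured factors of forebrain patterning, 4 of 16 had all midbrain values below the others (2.43% of all transcripts) and 0 above (3.56%), with a median difference of -0.97 (-0.43 with the floor on dim values).

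Genes of cortical and hippocampal projection neurons had the lowest median, -2.07 over 19 genes, with 4 of 18 below all other channels and 0 above, beside 2.43% and 3.56% of all transcripts. Itpka, a kinase of dendritic spines, was at 7.90, 8.33, 8.27 and 8.29 against 9.53, 14.77 and 15.54. Camk2a, the alpha subunit of the calcium kinase of glutamate synapses, was at 7.07, 6.65, 7.23 and 6.56 against 10.01, 11.68 and 12.96, and the hypothalamus had 9.54-fold its signal. Neurod2 was at 5.20 to 5.70 against 6.74 to 13.05. Slc17a7, the glutamate transporter of cortical neurons, was at 2.75, 4.69, 2.54 and 3.24 against 4.14, 7.46 and 9.99, with 1 midbrain value inside the range of the others. Slc17a7 and Neurod2 were named after their values were seen.

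Striatal genes had a median difference of -1.54 over 16 genes, with 4 of 15 below all other channels, beside 2.43% of all transcripts. Drd1, the main dopamine receptor of the direct pathway, was not well above background in midbrain and was at 10.56 in the ventral striatum, and the mean of the other regions was at least 4.18-fold higher in signal. Bcl11b, a factor of striatal and corticospinal neurons, was at 5.47, 5.61, 5.86 and 5.53 against 6.01, 9.20 and 11.00. Adora2a, an adenosine receptor of the indirect pathway, was at 7.66 to 7.86 in midbrain and overlapped with the other regions, whose highest value of 13.94 was in the ventral striatum.

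Tac3, which encodes neurokinin B (Tac2 in the array files), lay low in midbrain and nearly level elsewhere. It was at 6.90, 7.41, 6.95 and 7.23 in midbrain and at 11.43, 11.88 and 12.75 elsewhere, and the 5 other regional means lay within 11.58 to 12.54. The hypothalamus had 22.0-fold the signal of midbrain. The difference was -4.86 (SE 0.46) with a limma adjusted p of 0.059. Fam107a, an actin regulator of astrocytes and neurons, had a like pattern, at 6.81, 6.74, 6.86 and 6.52 against 9.20, 9.67 and 10.94, and a difference of -3.05 (SE 0.42, limma adjusted p = 0.309).

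Ddn, dendrin of cortical dendrites, was at 6.58, 5.43, 6.49 and 5.83 against 8.35, 12.37 and 13.52. Ptk2b, a calcium-dependent tyrosine kinase, was at 8.40, 8.45, 8.44 and 8.45 against 10.51, 12.22 and 12.95. Dlgap3, a scaffold protein of the postsynaptic density, was at 6.73 to 7.13 against 8.30 to 9.79. In all 3 the midbrain values lay below every other value. Gabrd, the delta subunit of extrasynaptic GABA receptors, was at 9.74, 9.43, 9.64 and 9.49 against 11.06, 12.32 and 13.83, and here the highest region was the hypothalamus, at 13.71. Junb, an activity-dependent transcription factor, was at 6.07, 5.84, 5.81 and 5.37 against 7.23, 8.13 and 9.43.

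The other genes below, with the nearest region at 3.24-fold to 5.79-fold the signal of midbrain, were Wipf3, Rasgrp1, Camkv, Rspo3, Gdf10, Myo5b, Traip, Wnt10a, Dpf1 and Mzf1. Another probe of Wnt10a differed by -1.51, where the probe used differed by -4.09. Kcnf1 and Kctd16 were not well above background in any midbrain channel, and the mean of the other regions was at least 4.13-fold and 2.03-fold higher in signal.

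**Figure D4:**
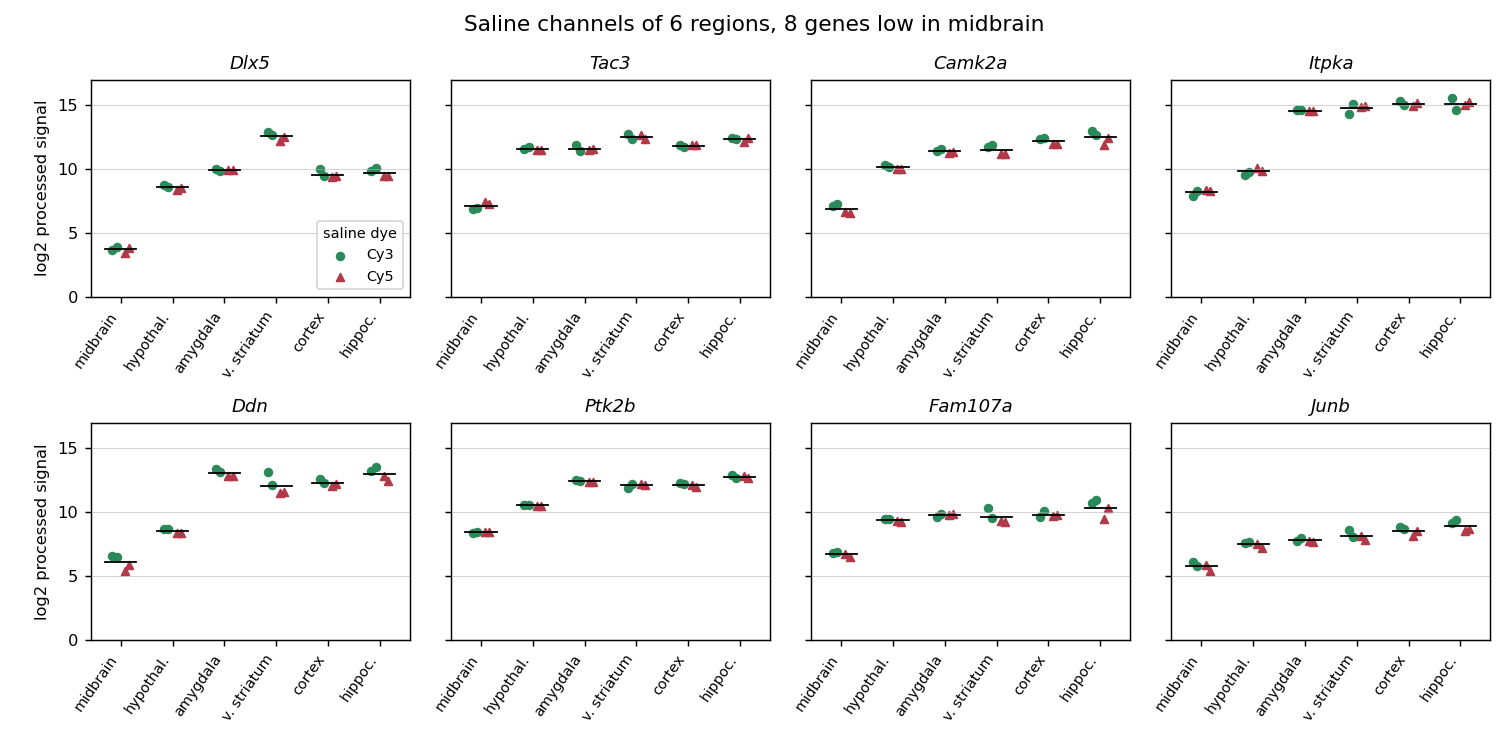
Log2 processed signal of 8 genes (panels) in the saline channels of 6 regions, 1 point per array with the mean of 4 as a bar, circles with saline in Cy3 and triangles with saline in Cy5. The 4 midbrain points lie below the 20 others in every panel, and the hypothalamus is next lowest in all 8, close to the other regions for Tac3 and far below them for Itpka and Ddn.

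Lists of markers of other cell types and neighbouring tissues were compared in the same way. Median differences were 0.46 for 12 astrocyte genes, -0.14 for 12 microglia genes, 0.18 for 13 genes of endothelium and pericytes, 0.28 for 6 of ependyma, 0.07 for 11 of meninges and fibroblasts, -0.33 for 9 of cerebellum, -0.01 for 7 of pituitary and -0.05 for 4 of red blood cells. Among astrocyte genes Aqp4, the water channel, was at 9.85 to 10.27 against 7.54 to 9.96, and Slc1a2, a glutamate transporter named after its values were seen, was at 10.29 to 10.78 against 11.09 to 12.55. Of the 11 choroid plexus genes the median was -0.48. Ttr, the most abundant transcript of choroid plexus, was at 7.41, 7.43, 6.98 and 7.06 in midbrain and at 14.92 on average in the amygdala and 13.19 in the hypothalamus. The pineal list had a median of 0.71 over 7 genes, with Cnga1 at 5.50 to 5.87 against 1.96 to 5.19. Differences were 2.19 for Cnga1, 1.53 for Tph1, 0.90 for Rom1 and 0.71 for Asmt. They were -0.03 for Pde6b, -0.34 for Aanat and -0.42 for Crx. Tph1 was higher in the hypothalamus than in midbrain, and another of its probes gave 0.06.

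The 8 genes of the thalamus, which borders the midbrain, had a median difference of 0.65 from all regions and of -2.03 from the hypothalamus. Prkcd, a kinase of thalamic neurons named after its values were seen, was at 12.36 to 12.61 in midbrain, at 15.67 on average in the hypothalamus and at 10.04 to 12.05 in the other regional means. Calb2, calretinin, was at 15.28, 14.86, 14.84 and 14.49, with the hypothalamus close at 14.48. The 15 hypothalamic genes had a median of -0.01, and Oxt, the oxytocin gene, was at 4.90 to 4.98 in midbrain and 9.12 in the hypothalamus. Whether thalamic tissue in a dissected block bears on these values was not tested.

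The MK-801 channels of the same arrays allowed the same comparison in RNA of the other 6 rats, on the same slides and from the same kind of dissection. Each regional mean of MK-801 RNA averages arrays of both doses. The fit to regional means called 5 higher (0.0175% of 28529) and 1 lower (0.00351%). At an unadjusted p under 0.05 there were 825 higher and 736 lower. Here too about 1 in 20 would do so by chance. Ucn, Uts2, BF284544 and TC558213 passed in both kinds of RNA. Slc6a3 passed in MK-801 RNA, where the hypothalamus was at 3.38 rather than 8.21 and 1 of the 20 other channels was well above background. Its difference was 11.08 (limma adjusted p = 0.00146) as measured and 9.67 (SE 0.57, limma adjusted p = 0.00694) with dim values set to the floor. Tac3 passed as lower, with -4.89 (SE 0.42, limma adjusted p = 0.0351). En2 did not pass, with a difference of 4.14. With the floor 8 were called higher and 1 lower, and the call of Uts2, well above background in 0 of the 20 other channels, was lost (limma adjusted p = 0.167).

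In MK-801 RNA 938 transcripts had all 4 midbrain channels above all 20 others (3.51% of 26738) and 641 all below (2.40%). Of the 957 found in saline RNA, 951 (99.4%) also had their highest regional mean in midbrain in MK-801 RNA, where 19.1% of all genes did, and 678 were again free of overlap. Of the 654, 644 (98.5%) had their lowest mean there, where 15.6% of all genes did, and 454 were free of overlap.

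Tph2 and Slc6a4 lay at other levels in the MK-801 channels of midbrain than in its saline channels. Tph2 was at 10.13, 9.71, 10.62 and 10.60 in the MK-801 channels, above the 8.99 to 9.26 of the saline channels, and Slc6a4 was at 7.44, 7.69, 7.97 and 8.09, above 6.21 to 7.12. The groups did not overlap for either gene. The rats differ between the channels, and saline and MK-801 channels were quantile-normalized as separate sets. The MK-801 RNA was of the high dose on arrays 1 and 2 and of the low dose on 3 and 4. No test was made of this contrast between saline and MK-801 channels, and its cause was not tested.

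**Figure D5:**
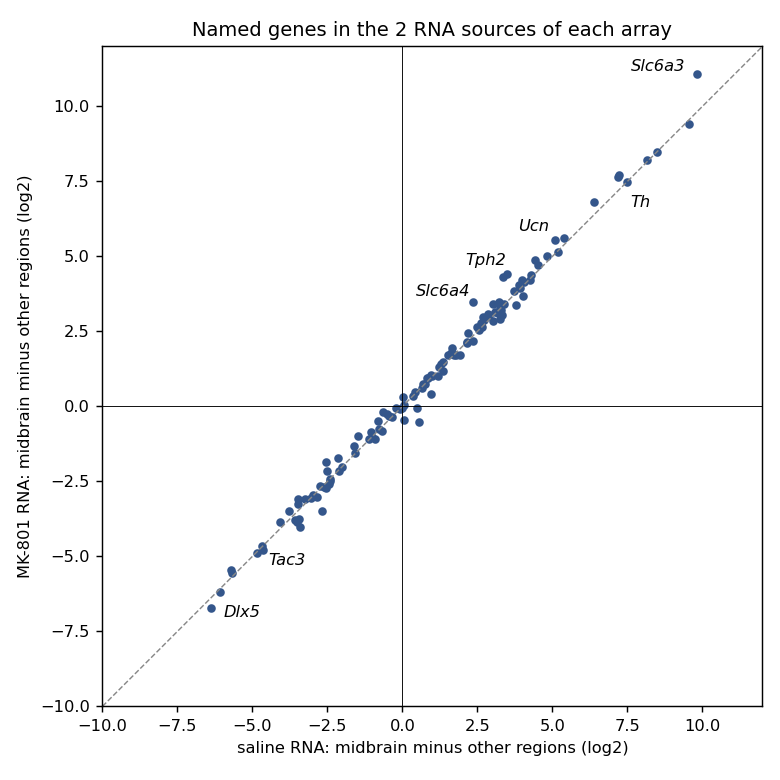
Difference between midbrain and the other regions (log2) in MK-801 RNA (vertical axis) against that in saline RNA (horizontal axis), 1 point for each gene shown of those picked by the naming rules, with the dashed line of equal values. Most points lie near the line, from Dlx5 at -6.37 and -6.71 to Slc6a3 at 9.81 and 11.08, and Tph2 and Slc6a4 lie above it.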

How the data were processed

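Each array had 1 deposited file of scanner output, made with Agilent Feature Extraction 9.5.3.1. Per the file headers it holds for every spot a processed signal in either colour, that is a fluorescence intensity that the software had corrected for background and for dye, with spot flags. The deposited values of the series, log10 ratios of the dyes, were not used, since they give no level of the saline channel alone. From each array the processed signal of the saline dye was taken, control spots and outlier flags were left out, and log2 values were quantile-normalized over the 24 saline channels. The 24 MK-801 channels were normalized in the same way as a separate set. Spots of a probe were averaged, and of the probes well above background in at least 4 channels the one with the highest mean stood for its gene. Of 41012 probes, 20048 had a gene symbol, updated through the RefSeq gene table where that held the accession or name.

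Regional means, balanced over the dyes, were compared with limma 3.58.1 in R 4.3.3 (lmFit and eBayes, midbrain against 5 regions, Benjamini-Hochberg adjusted p under 0.05), with statmod 1.5.0 and data.table (1.17.8) and figures from Python 3.11.15 with pandas 2.3.3 and matplotlib 3.10.9. The fit was tested on simulated data. The lone midbrain value is taken to vary as much as the others. Alternatives changed the scaling, background correction, filter, probe choice, dye, fit and the regions or arrays used. A fold is 2 to the power of a difference, and "at least" sets the dimmer side to the lowest well-above-background signal of its channels. Members and lists were chosen with earlier results of these data known. The rule for named genes took those with a symbol past the test and outside the range of all other regions (at most 20 above and 12 below, by distance), all measured genes of the dopamine and serotonin lists, and of each other list up to 4 past the test or, where none passed, up to 2 with the largest difference. BF284544 and TC558213, without a symbol, the 30 genes with the largest distance above all regions, the 25 below, and the genes said to be so, as well as Dbh, Chat, Park7, Pink1, Adora2a, Aspa, Chrna5, Nefm, Lhx1, Irx3 and TC534031, were named after their values were seen. Some genes these rules picked are not reported here. The number of arrays limits the precision.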

Additional observations from a re-analysis of the deposited data

Results flagged for a closer look

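Among the genes picked for naming, 127 had a value in all 4 midbrain saline channels, and in 7 of them 1 channel lay far from the other 3, where chance alone flags about 1 in 20. Lmx1b was at 4.86 in array 1 and at 5.93 to 6.10 in the others. Itpka was at 7.90 in array 1 against 8.27 to 8.33, and Pou1f1, a pituitary factor that was not well above background in midbrain, was at 2.97 in array 1 against 1.95 to 2.11. Gata2 was at 7.49 in array 2 against 7.01 to 7.07, and Foxj1, an ependymal factor, was at 10.86 in array 2 against 10.62 to 10.65. Dlgap3 was at 7.13 in array 3 against 6.73 to 6.80, and Rgs5, a pericyte gene, was at 10.28 in array 4 against 10.65 to 10.68. For Itpka and Dlgap3 all 4 channels lay below the other regions with or without the distant one.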

How the results depend on the processing

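The calls of the fit to regional means (5 higher, 0 lower in saline RNA) rest on few values. Signal limits them, since outside midbrain Uts2, BF284544, TC558213 and En2 were well above background in 1 to 2 of 20 channels. The count of higher genes was 3 with scaling to the 75th percentile, 8 with normexp background correction, 0 with a filter on all 24 channels, under which none of the 5 was tested, 1 with Cy3 and 3 with Cy5 channels, and 3 to 4 without replicate 1, 2, 3 or 4. Leaving out a region gave 1 (amygdala), 2 (ventral striatum), 2 (cortex), 1 (hippocampus) or 33 (hypothalamus). It was 0 with a floor on dim values and 0 with the scan day as a block, both chosen after seeing the data, and the cause was not tested. The fit with the scan day could hardly call a transcript. Also chosen then, the floor without the hypothalamus gave 31 higher and 39 lower, and the floor in MK-801 channels gave 8 and 1. Lower genes numbered 1 with normexp, 1 with an intensity trend and robust prior, 34 without the hypothalamus, and 1 in the MK-801 channels and 1 in those of the high dose.

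Fits to single channels, whose p measures arrays only, called 5372 higher and 5022 lower, 224 and 287 with the slide as a random block (correlation 0.552), and 5361 and 4678 within the scan day against the amygdala. The labels number the arrays of each region 1 to 4. Deviations of arrays with the same number correlated at -0.125 to 0.239 over 60 pairs, 16 of them over 0.1. With the dye mean removed they correlated at -0.232 to 0.2, but taking out a mean over the same channels lowers such correlations by itself. Whether arrays with the same number share animals cannot be told from these values. With the number as a replicate block the single-channel fit called 5407 higher and 5004 lower.

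Transcripts free of overlap (957 above, 654 below) numbered 2133 and 1555 with Cy3, 2368 and 1943 with Cy5, 1639 and 1179 without the hypothalamus (1586 and 1091 with the floor too), 1927 and 1529 in the MK-801 channels of the high dose and 2231 and 1509 in those of the low dose, where fewer channels were compared. They ranged from 1203 to 1514 and from 810 to 1003 without 1 replicate, and 399 lay below with normexp. In MK-801 RNA 11 were higher with normexp, 11 with no filter, 2 with the filter on all 24 channels and 13 with the mean of a gene's probes.

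Of 3554 values of 130 genes picked for naming under the alternatives, 76 changed sign, in 13 genes with small differences or wide error. Lmx1b turned to 0.00 (normexp), 0.17 (mean of probes), 0.23 (Cy5), -0.31 to 0.13 (without 1 replicate), 0.02 (without the hypothalamus), 0.01 (low dose), 0.00 (floor) and 0.37 (both scan day settings). Kcnj6 turned to -0.18 (Cy5), -0.14 to 0.14 (without 1 replicate), -0.56 (without the ventral striatum), -0.10 (without the hypothalamus), -0.06 (MK-801 channels), -0.29 (high dose) and -0.35 (scan day). Htr1a turned to -0.13 (normexp), -0.07 (Cy5), -0.05 to 0.10 (without 1 replicate), -0.42 (without the ventral striatum), -0.23 (without the hypothalamus), -0.19 (floor) and -0.33 (scan day). Slc22a3 turned to -0.06 (75th percentile), -0.27 (normexp), -0.25 (Cy5), -0.10 to 0.20 (without 1 replicate), -0.16 (without the amygdala), -0.89 (without the hippocampus), -0.44 (MK-801 channels), -0.73 (high dose), -0.16 (low dose) and -0.36 (floor). Dbh turned to -0.00 (75th percentile), -0.04 (Cy3), -0.42 to 0.49 (without 1 replicate), -0.05, -0.04 and -0.01 (without the amygdala, striatum or hippocampus) and -0.58 (low dose). Chat turned to 0.16 (Cy5), 0.18 (high dose), 0.16 (floor) and 0.01 (scan day). Tshb turned to -1.52 to 0.64 (without 1 replicate), 1.67 (low dose) and 0.13 (floor). Prkcd turned to -0.53, -0.34 and -0.72 (MK-801 channels, high and low dose), Maob to 0.04 (Cy3) and 0.06 (high dose), Itgam to -0.05 (scan day), Nr4a2 to 0.01 (low dose), Slc22a6 to 0.10 (high dose) and Hbb-b1 to -0.07 (MK-801 channels). With the floor, leaving out the hypothalamus also turned Lmx1b (0.11), Kcnj6 (-0.10), Htr1a (-0.40), Slc22a3 (-0.03), Tshb (0.18) and Chat (0.16), and the MK-801 channels turned Kcnj6 (-0.06), Htr1a (-0.03), Slc22a3 (-0.82), Hbb-b1 (-0.07), Prkcd (-0.53) and Dbh (-0.08). Differences of Th, Slc6a3, Tph2 and the 5 called transcripts kept their sign under every alternative tried.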
